A study of Mus musculus with 2 samples.

Results

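The developmental pluripotency associated (Dppa) genes *Dppa2*, *Dppa3*, *Dppa4* and *Dppa5a* were described in single mouse embryonic stem (ES) cells with and without *Lin28a*. They were taken from the count tables by Ensembl ID and are 4 of the 54146 listed genes. The study asked how the RNA-binding protein LIN28A acts on endogenous retroviruses and on the programme of the 2-cell (2C) embryo. The 2 inDrop libraries, in which droplets tag each transcript of a cell with a unique molecular identifier (UMI), came from wild-type ES cells, labelled as untreated, and from *Lin28a* knockout ES cells, both derived from the inner cell mass. Both were grown in LIF/2i medium on gelatin with mouse embryonic fibroblast feeder cells, so feeder cells could be among the barcodes. The study made knockout ES cells as single clones with CRISPR/Cas9, and the wild-type cells were a transfected clone. Since each genotype had 1 library, its effect cannot be told apart from differences of clone, culture or library. No test between conditions was therefore made, and all intervals are 95% intervals that cover counting error only.

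DPPA2 and DPPA4 are DNA-binding proteins that form a pair on chromatin, and both are known as activators of *Dux* and the 2C genes in ES cells. DPPA3, also called STELLA, is a maternal factor that protects the early embryo's genome from changes in DNA methylation and keeps the methylation factor UHRF1 out of the nucleus. DPPA5A is a small protein with a KH-like RNA-binding fold and an abundant marker of naive pluripotent cells.

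In the GRCm38 annotation (GENCODE M21) *Dppa4* (chromosome 16 from 48283733 to 48294237, plus strand) and *Dppa2* (chromosome 16 from 48303908 to 48319723, plus strand) were neighbours, 9670 bases apart. *Dppa3* (chromosome 6 from 122626410 to 122630272, plus strand) lay 16322 bases from *Gdf3*, another pluripotency gene. *Dppa5a* (chromosome 9 from 78367052 to 78368177, minus strand) lay 7931 bases from *Ooep*, a gene of the maternal complex of the oocyte. All 4 genes have similar copies elsewhere, mostly processed pseudogenes, taken here as transcripts with at least 80% identity over at least 100 aligned bases. On chromosome 9 the annotated pseudogenes *Dppa5b* (78245550 to 78246135) and *Dppa5c* (78271998 to 78272583) have transcripts identical to each other. Each matched the *Dppa5a* transcript over 299 aligned bases at 96.3% identity. In an end-to-end alignment to the *Dppa5a* coding sequence there were 39 mismatches over all 348 aligned bases, an identity of 88.8%. An ungapped stretch of that alignment held 180 bases with 6 mismatches, an identity of 96.7%. The stretch is shown because reads from such a stretch can be told apart only at the few differing bases, which are in capitals; the *Dppa5a* line holds coding bases 119 to 298 and the *Dppa5b* line transcript bases 117 to 296.
Dppa5a: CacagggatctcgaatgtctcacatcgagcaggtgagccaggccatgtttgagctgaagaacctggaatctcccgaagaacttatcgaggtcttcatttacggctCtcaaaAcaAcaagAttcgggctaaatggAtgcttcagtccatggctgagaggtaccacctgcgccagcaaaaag
Dppa5b: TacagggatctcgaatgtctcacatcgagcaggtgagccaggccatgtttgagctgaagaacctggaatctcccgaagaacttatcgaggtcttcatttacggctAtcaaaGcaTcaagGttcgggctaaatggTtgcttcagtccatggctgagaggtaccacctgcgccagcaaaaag

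Barcodes with at least 500 UMIs and at most 20% of UMIs on mitochondrial genes were kept as cells, which left 1856 wild-type cells with 11639256 UMIs and 1622 knockout cells with 9340855 UMIs. The median cell had 6140 and 5063.5 UMIs. *Lin28a* itself was at 107 counts per 1000000 UMIs (CPM) in wild-type cells against 36.6 CPM in knockout cells, giving a ratio of 0.343 (0.304 to 0.387). A 3′ tag outside the edited exon does not check an edit, so this value does not test the label. Of 19 pluripotency genes all 19 had UMIs in both libraries, and their sum was 5091 and 5239 CPM. The 11 feeder fibroblast markers summed to 1179 CPM in wild-type cells against 528 CPM in knockout cells, and 31 and 16 cells with at least 1% of UMIs on 3 collagen genes (collagen-rich cells) served as a background for the Dppa genes.

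Between the libraries, the paired factors differed little when summed over all kept cells. *Dppa2* was at 96.9 CPM (91.3 to 103) in wild-type cells against 98.4 CPM (92.1 to 105) in knockout cells, giving a ratio of 1.02 (0.929 to 1.11). *Dppa4* was at 41.0 CPM (37.4 to 44.8) and 43.3 CPM (39.1 to 47.7), a ratio of 1.06 (0.922 to 1.21). For both, the interval of the ratio included 1. With UMIs on pseudogene copies added, an alternative chosen after seeing the data, the *Dppa2* ratio was 0.916 (0.843 to 0.994), on the other side of 1.

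*Dppa5a* was the most abundant of the 4 genes and was higher in the knockout library. It had 1207 CPM (1187 to 1227) in wild-type and 1414 CPM (1390 to 1438) in knockout cells, a ratio of 1.17 (1.14 to 1.20). This ratio stood at percentile 71.6 of all genes with at least 200 UMIs over both libraries. By depth, *Dppa5a* was at 1234 and 1601 CPM in cells of 2000 to 5000 UMIs and at 1225 and 1584 CPM at 5000 to 10000. At 10000 or more UMIs it was at 1164 and 1277 CPM. *Dppa3* was close to the limit of detection, with 22 UMIs (1.89 CPM) in wild-type cells against 8 UMIs (0.856 CPM) in knockout cells, giving a ratio of 0.453 (0.174 to 1.06) whose interval included 1. With no minimum of UMIs per barcode the ratio was 0.420 (0.162 to 0.973), an interval that did not include 1. Of all 9835 genes with at least 200 UMIs over both libraries, 14.9% differed by 1.5-fold or more in either direction, and none of the 3 Dppa genes with that many UMIs did. Per kilobase of the longest annotated transcript, the wild-type levels were 1949.7 CPM for *Dppa5a*, 39.6 for *Dppa2*, 27.7 for *Dppa4* and 2.27 for *Dppa3*. The knockout library gave the same order, although counts of 3′ tags do not grow with length.

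For *Dppa5a* and *Dppa2*, a larger difference than that between libraries was seen between cells that differed in ribosomal protein (RP) transcripts. The RP share is the percent of a cell's UMIs on 92 RP genes, and the cells were placed in classes of under 5%, 5 to 10%, 10 to 15% and at least 15%. These held 91, 835, 690 and 240 wild-type cells and 227, 397, 597 and 401 knockout cells. The class under 5% was shallow, with a median of 830 UMIs in wild-type and 1200.0 UMIs in knockout cells.

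*Dppa5a* was higher the higher the RP share, in both libraries. In wild-type cells it was at 215, 789, 1287 and 2355 CPM from the lowest to the highest class, and in knockout cells at 389, 915, 1296 and 2381 CPM. The class of at least 15% was 2.98-fold (2.86 to 3.11) above the 5 to 10% class among wild-type cells and 2.60-fold (2.48 to 2.73) above it among knockout cells. In these comparisons 24% and 28.8% of all tested genes were at least 1.5-fold higher, and *Dppa5a* stood at percentiles 99.3 and 97.7 of all ratios. As RP transcripts are part of the total, the ratios were also computed without them in the denominator and were 3.31 and 2.88.

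*Dppa2* had the opposite order between the 3 upper classes, but the step to the 10 to 15% class was small. There it was at 92.7 CPM in wild-type and 112 CPM in knockout cells. These were 0.792 (0.696 to 0.901) and 0.862 (0.748 to 0.993) of the 5 to 10% class. The knockout ratio was 0.889 (0.772 to 1.02) without RP genes in the denominator and 0.856 (0.686 to 1.07) in cells of 2000 to 10000 UMIs. Both of those intervals included 1. *Dppa2* was highest in the 5 to 10% class, at 117 CPM (108 to 126) in wild-type and 129 CPM (117 to 143) in knockout cells. It was lowest in the class of at least 15%, at 46.2 CPM (36.9 to 57.1) and 41.9 CPM (34.0 to 51.1). The ratios of these classes were 0.395 (0.311 to 0.495) and 0.324 (0.256 to 0.405). A level at least 1.5-fold lower was common among all tested genes, at 44.2% and 39.3%, and *Dppa2* stood at percentiles 25.7 and 17.9 of the ratios, which does not set it apart.

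*Dppa4*, the partner and neighbour of *Dppa2*, did not follow it. In wild-type cells it was at 20.4, 37.9, 48.0 and 35.9 CPM from the lowest to the highest class, and in knockout cells at 18.8, 46.6, 46.5 and 37.1 CPM. The 10 to 15% class of wild-type cells was 1.26-fold (1.04 to 1.54) above the 5 to 10% class, but in cells of 2000 to 10000 UMIs this ratio was 1.16 (0.926 to 1.45), whose interval included 1. Between the highest class and the 5 to 10% class the *Dppa4* ratio was 0.946 (0.706 to 1.25) for wild-type cells, against 0.798 (0.602 to 1.05) for knockout cells. *Dppa3* had at most 12 UMIs in any class, and no difference was detectable at this depth.

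**Figure D1:**
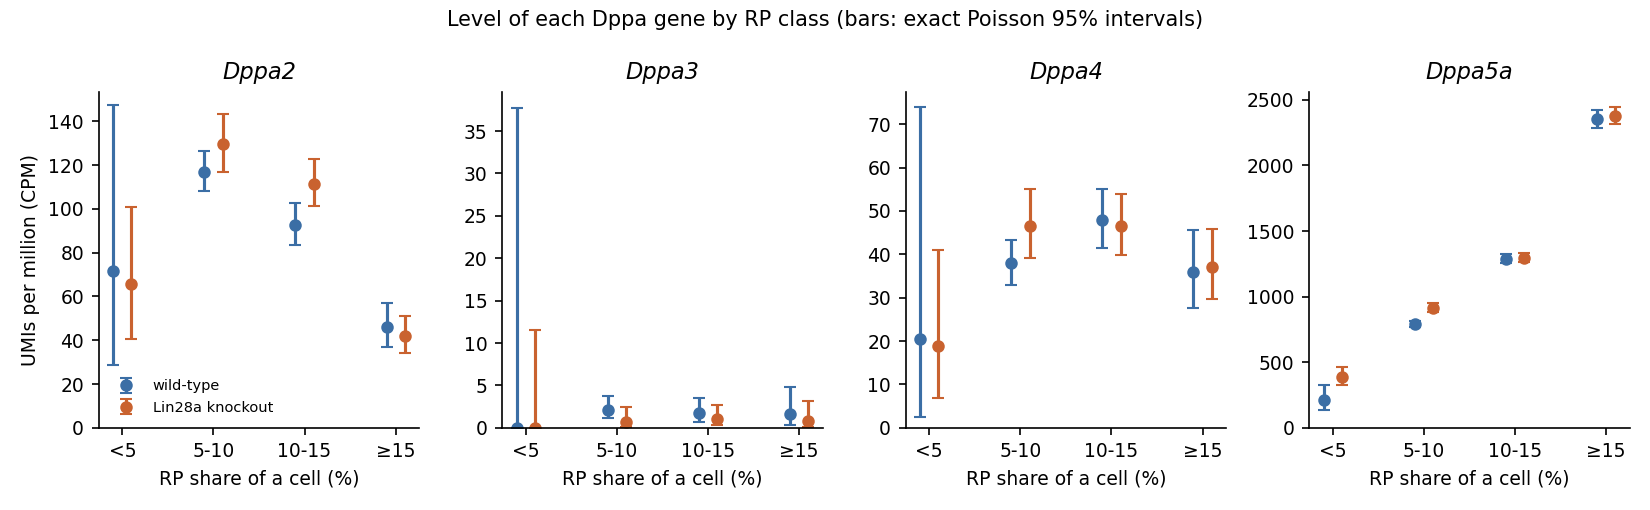
CPM of each Dppa gene (y axis, linear, from 0) in cells of 4 RP classes (x axis) in the wild-type and *Lin28a* knockout libraries; points are summed UMIs of a class and bars exact Poisson 95% intervals. *Dppa5a* climbs from 215 to 2355 CPM in wild-type cells while *Dppa2* falls from 117 to 46.2 CPM between the 5 to 10% class and the highest class.

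The balance between members therefore shifted across the classes. There were 3.08 *Dppa2* UMIs per *Dppa4* UMI (2.64 to 3.62) in wild-type cells of the 5 to 10% class and 1.29 (0.923 to 1.80) in those of at least 15%. In knockout cells the values were 2.78 (2.28 to 3.41) and 1.13 (0.835 to 1.53). Among the ratios of all tested genes between these classes, *Dppa2* stood at percentiles 25.7 and 17.9 and *Dppa4* at 56.9 and 45.3. The balance is not given here for other gene pairs or with UMIs on pseudogene copies added. Nothing particular to this pair was therefore read from its shift. *Dppa5a* UMIs per *Dppa2* UMI went from 6.75 (6.21 to 7.33) to 51.0 (41.1 to 64.0) in wild-type and from 7.07 (6.34 to 7.89) to 56.8 (46.5 to 70.2) in knockout cells.

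**Figure D2:**
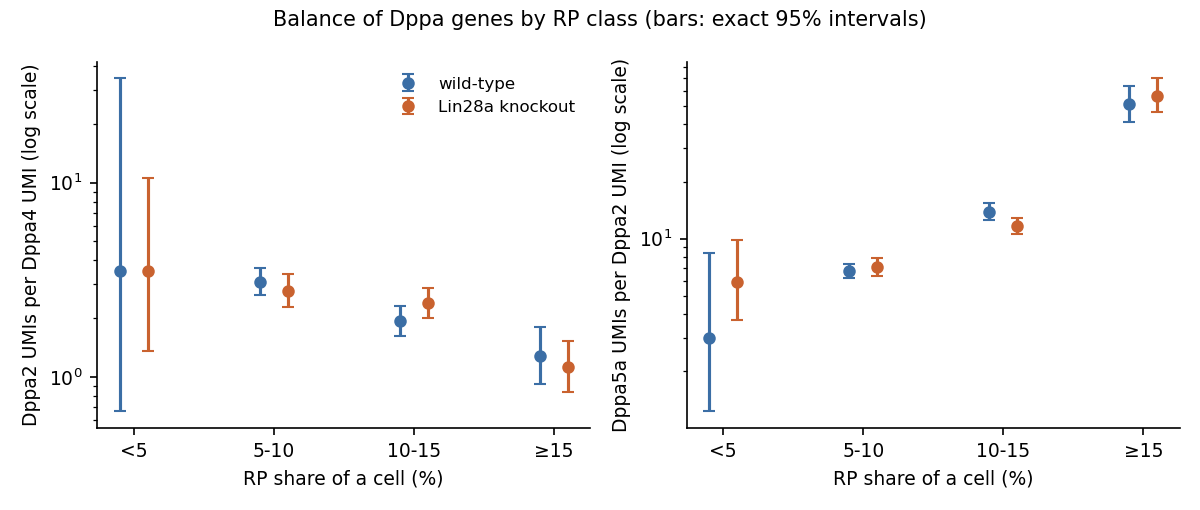
*Dppa2* UMIs per *Dppa4* UMI (left) and *Dppa5a* UMIs per *Dppa2* UMI (right), both on log axes, by RP class and library; bars are exact 95% intervals. The left ratio drops from 3.08 to 1.29 and the right one rises from 6.75 to 51.0 in wild-type cells between the 5 to 10% class and the highest class.

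Other measures moved with the RP share. The median mitochondrial share of a cell was 4.32%, 1.76%, 1.08% and 0.188% from the lowest to the highest class in wild-type cells and 6.02%, 2.59%, 1.42% and 0.280% in knockout cells. The feeder fibroblast markers summed to 9018, 1620 and 342 CPM in the lowest, 5 to 10% and highest class of wild-type cells, and to 1324, 703 and 388 CPM for knockout cells. Their part in the results was not tested. Without collagen-rich cells the *Dppa5a* ratio between libraries was 1.15.

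The 2 libraries differed in how their cells fell into these classes. Within classes the knockout over wild-type ratio of *Dppa5a* was 1.81 (1.13 to 3.03) under 5%, 1.16 (1.10 to 1.22) at 5 to 10%, 1.01 (0.969 to 1.05) at 10 to 15% and 1.01 (0.971 to 1.05) at 15% or more. The ratio under 5% rested on 21 wild-type and 124 knockout UMIs, fewer than the 200 asked of tested genes. In that class the median ratio of the 217 tested genes was 1.19. Of them, 26.3% were at least 1.5-fold higher and 17.1% at least 1.5-fold lower. With the knockout classes weighted as in the wild-type library, an alternative chosen after seeing the data, the *Dppa5a* ratio between libraries was 1.06 in place of 1.17. The part of the class sizes in the difference between libraries was not tested. *Dppa2* was higher in the knockout cells of the 10 to 15% class, with a ratio of 1.20 (1.04 to 1.39), and its intervals included 1 in the other 3 classes. For *Dppa4* the interval included 1 in each class. Some of these values changed when UMIs on the pseudogene copies were added, an alternative chosen after seeing the data. *Dppa2* was then at a ratio of 1.02 (0.895 to 1.16) in the 10 to 15% class, whose interval included 1. *Dppa5a* was then at 1.11 (1.08 to 1.15) in the 10 to 15% class and 1.12 (1.08 to 1.15) in the highest class, intervals that did not include 1.

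*Dppa5a* also varied from cell to cell beyond counting. After each cell of at least 2000 UMIs was thinned to 2000, the variance of its UMIs was 1.77 times the mean in wild-type and 2.04 times in knockout cells, where counting alone gives 1. *Pou5f1* and *Zfp42*, pluripotency genes, had means of 1.66 and 1.38 UMIs in 2000 in wild-type cells, against 2.45 for *Dppa5a*. In knockout cells the means were 2.04 and 1.02, against 3.02. Their variance over mean was 1.15 and 1.26 in wild-type and 1.16 and 1.18 in knockout cells. *Nanog*, *Tdgf1* and *Utf1*, of lower mean, had 1.14, 1.10 and 1.17 in wild-type and 1.42, 1.14 and 1.14 in knockout cells. As the means differ, *Dppa5a* was not ranked against these pluripotency genes. For *Dppa2* these values were 1.01 and 1.14, for *Dppa4* 1.004 and 0.940 and for *Dppa3* 1.19 in wild-type cells, with none left to measure in knockout cells. The means of these 3 genes were at most 0.199 UMIs, far below that of *Dppa5a*, and they were not ranked against it. The median cell of the 5 to 10% class had 1 *Dppa5a* UMI in 2000 among wild-type cells and 2 among knockout cells, and the median cell of the highest class had 5 in both. Cells with none made up 24.3% and 22.4% of the 5 to 10% class and 1.72% and 4.23% of the highest class.

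**Figure D3:**
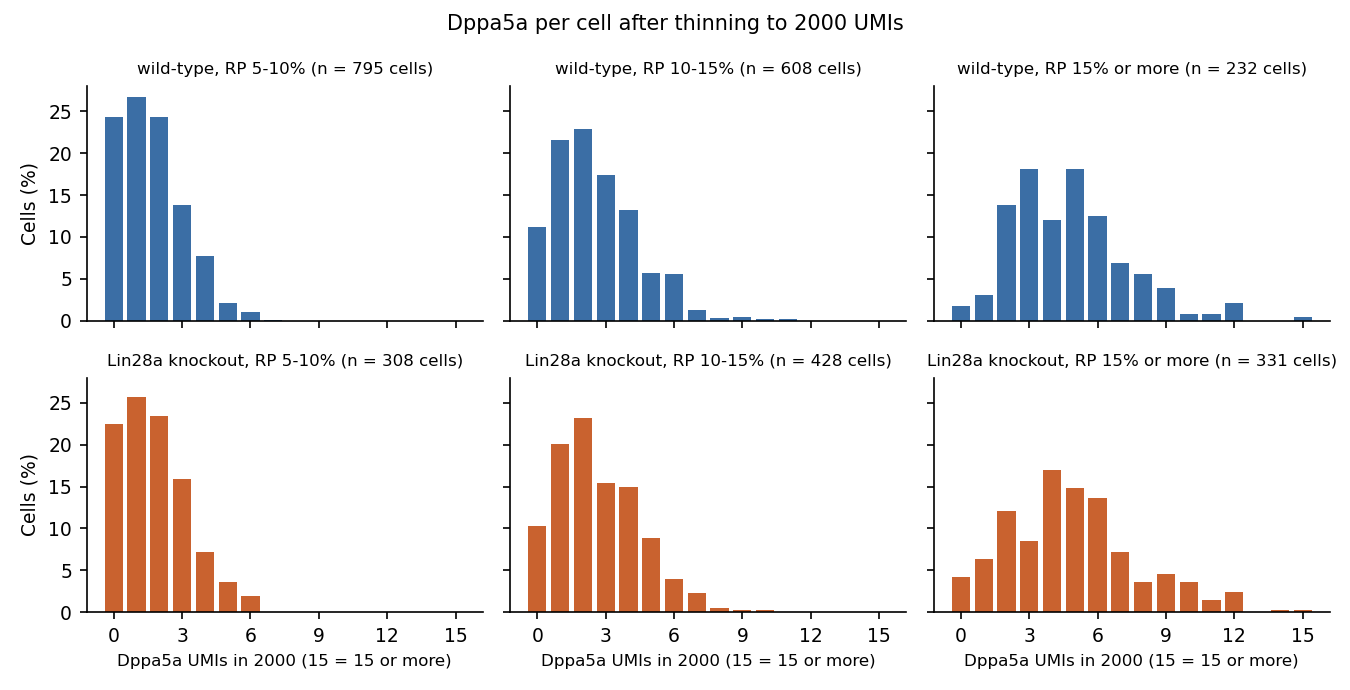
Percent of cells (y axis) with each number of *Dppa5a* UMIs after thinning to 2000 UMIs (x axis, the last bar 15 or more) in 3 RP classes of the wild-type (top) and *Lin28a* knockout (bottom) libraries. The whole distribution shifts, with a median of 5 UMIs in the highest class of both libraries.

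The share of cells with a UMI depended on depth. Unthinned, *Dppa5a* was seen in 90.0% (88.6 to 91.4) of the wild-type cells, against 80.4% (78.4 to 82.3) of the knockout cells, while at 500 UMIs per cell the expected shares were 41.4% and 43.8%. The order of the libraries thus turned with thinning, and no order was read from the unthinned shares. At 500 UMIs *Dppa2* was expected in 4.72% and 3.92% of cells and *Dppa4* in 2.01% and 1.96%. In collagen-rich wild-type cells, which should lack these genes, the values at 500 UMIs were 1.20% for *Dppa5a*, 0.363% for *Dppa2* and 0.259% for *Dppa4*, at a median depth of 9310.0 UMIs. In the 16 collagen-rich knockout cells, with a median of 2105.5 UMIs, they were 5.27% for *Dppa5a*, from 4 UMIs, and 3.80% for *Dppa2*, from 3 UMIs, while *Dppa4* had none. For *Dppa2* this is close to the 3.92% of all knockout cells, so a low background was not shown there. *Dppa3* had UMIs in 21 wild-type and 8 knockout cells and in none of the 31 and 16 collagen-rich cells, for which the exact Poisson upper limits are 11.6 and 50.7 CPM.

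Over cells of at least 2000 UMIs (1642 wild-type and 1110 knockout cells), the residuals of *Dppa5a* correlated with the RP share at r = 0.697 and 0.655 and with the mitochondrial share at r = -0.473 and -0.482. *Dppa2* correlated with the RP share at r = -0.209 and -0.252. The neighbours *Dppa2* and *Dppa4* correlated at r = 0.0577 and 0.0387, too weakly in these sparse counts to be read as a relation. The points are cells of 1 library and share its depth and composition. Among 6555 genes, those most like *Dppa2* by the mean r of both libraries were *Ptges3*, *Npm1*, *Ptma*, *Srsf2* and *Hnrnpf*, at 0.253 to 0.234. Those most like *Dppa5a* were *Rps2-ps10*, *Pigp*, *Gm8730*, *Rps2-ps13* and *Rps18*, at 0.621 to 0.606. *Rps18* is one of the RP genes, and *Rps2-ps10* and *Rps2-ps13* are by name pseudogenes of the RP gene *Rps2*, a kind left out of the RP set. *Pigp* holds an annotated transcript with a copy of *Dppa5a*. For *Dppa3* and *Dppa4* the highest mean r was 0.0899 and 0.0906.

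These similar copies took a sizeable part of the UMIs, so that the gene rows alone are uncertain. The 9 pseudogene copies of *Dppa5a*, with an identity of 83.7% (*Gm17772*) to 96.9% (*Gm6083*) over the aligned bases, had 5218 UMIs among wild-type cells and 6913 among knockout cells, 27.1% (26.5 to 27.7) and 34.4% (33.7 to 35.0) of the gene and these copies together. *Gm6798*, on chromosome X, held the most of them, with 1211 and 1858 UMIs. *Gm15310* (1088 and 1634 UMIs) lies within *Pigp*, and *Gm11649* (139 and 175 UMIs) within *A830035A12Rik*, each on the strand of that gene. Both were counted as copies, although their UMIs can belong to these host genes. Matching genes not annotated as pseudogenes were left out of these shares, since their UMIs can be their own: *Pigp*, whose match spans 417 bases at 95.9% identity, had 1753 and 1736 UMIs, *Gm10112* had 425 and 551, and *A830035A12Rik* had 109 and 107. Of 11 matching pseudogenes of *Dppa2*, 9 were analysed here, with an identity of 82.4% (*C87114*) to 99.3% (*Gm9788*), and they held 17.6% (15.6 to 19.7) and 8.65% (6.98 to 10.6), led by *Gm9788* with 101 and 34 UMIs. Over all barcodes, 7 and 8 *Dppa5a* UMIs and 0 and 2 *Dppa2* UMIs were marked as ambiguous in the deposited wild-type and knockout counts. How this mark was set was not examined. The counts do not show which reads came from the gene and which from a copy.

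Adding the copies, an alternative chosen after seeing the data, moved both genes between libraries. The ratio of *Dppa5a* with its copies, *Gm15310* and *Gm11649* among them, was 1.30 (1.28 to 1.33). That of *Dppa2* was 0.916 (0.843 to 0.994), which is on the other side of 1 from the gene alone. *Dppa4* had 4.41% and 2.88% of these UMIs on copies and a ratio of 1.04 with them added. Against the RP share the sums of *Dppa2* and *Dppa5a* kept the direction of the genes, and for *Dppa5a* the highest class was then 3.15-fold and 2.77-fold above the 5 to 10% class. The *Dppa2* sums fell from 135 to 66.9 CPM in wild-type and from 141 to 51.8 CPM in knockout cells, in proportion less than the gene alone. Between these classes the share of UMIs on *Dppa2* copies rose from 13.4% to 30.9% in wild-type and from 7.97% to 19.2% in knockout cells. The pseudogene *Dppa5c* was at 14.96 CPM in the 5 to 10% class and 105 CPM in the highest class of wild-type cells, and at 25.8 and 102 CPM in knockout cells. As its transcript is identical to that of *Dppa5b*, which had 233 and 246 UMIs in all cells, UMIs of the pair cannot be assigned to either.

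**Figure D4:**
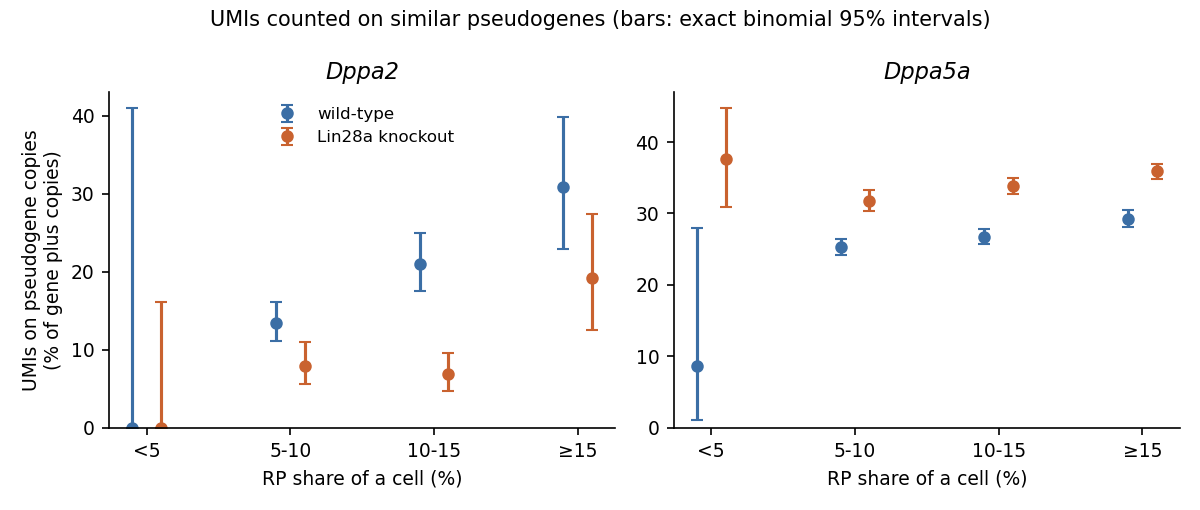
UMIs on similar pseudogenes as a percent of the UMIs of the gene and these copies (y axis, from 0) for *Dppa2* and *Dppa5a*, by RP class and library; bars are exact binomial 95% intervals. Over all cells the share is 27.1% and 34.4% for *Dppa5a* and 17.6% and 8.65% for *Dppa2* in the wild-type and knockout libraries.

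As DPPA2 and DPPA4 act upstream of the 2C genes, cells with at least 1 UMI of 33 matched 2C genes were set against the other cells. There were 44 such wild-type cells (2.37%) and 41 such knockout cells (2.53%). Among collagen-rich cells 1 of 31 wild-type (3.23%, 0.0816 to 16.7) and 0 of 16 knockout cells (up to 20.6%) had such a UMI, so the share was not shown to exceed background, and a single UMI does not make a cell a 2C-like one. Without the *Usp17l* genes 16 wild-type and 18 knockout cells remained. No *Zscan4* or *Tcstv* gene of the list had a UMI in knockout cells or more than 2 UMIs in wild-type cells, too few to compare the libraries. *Dppa2* was at 101 CPM in these wild-type cells and 96.8 CPM in the others, a ratio of 1.05 (0.728 to 1.46). Among knockout cells it was at 148 and 96.0 CPM, a ratio of 1.54 (1.17 to 1.99). Of all tested genes, 8.09% (wild-type) and 9.88% (knockout) were at least 1.5-fold higher in the cells with a 2C UMI, and 6.51% and 7.53% at least 1.5-fold lower. The knockout cells with a 2C UMI had a median of 11069 UMIs against 4934 in the others, and among cells of at least 5000 UMIs, an alternative chosen after seeing the data, the ratio was 1.47 (1.12 to 1.91). With the *Usp17l* genes left out of the list the ratios were 0.892 (0.474 to 1.53) and 1.75 (1.17 to 2.54). Feeder markers also moved with this split: of 5 with at least 200 UMIs 3 were 1.5-fold higher and 1 lower in wild-type cells with a 2C UMI (median ratio 1.51), and of 3 in the knockout library 0 were higher and 2 lower (median ratio 0.0743). Their part in these values was not tested. Whether this ratio differs between the libraries was not tested.

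*Dppa4* had ratios of 1.24 (0.730 to 1.99) and 1.09 (0.658 to 1.71) in the wild-type and knockout libraries. *Dppa5a* was lower in cells with a 2C UMI, at 1028 against 1212 CPM in wild-type cells, a ratio of 0.848 (0.762 to 0.941), and at 998 against 1434 CPM in knockout cells, a ratio of 0.696 (0.630 to 0.766). Neither of these *Dppa5a* ratios passed 1.5-fold, and they stood at percentiles 22.5 and 9.52 of the ratios of all tested genes. The median RP share of the cells with and without a 2C UMI was 9.26% and 10.03% for wild-type cells and 9.88% and 11.2% for knockout cells.

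Genes that act with the Dppa genes were given for the highest against the 5 to 10% class. Among all tested genes 24% were 1.5-fold higher and 44.2% lower in the wild-type library, and 28.8% higher and 39.3% lower in the knockout library. Of 7 DNA methylation genes with at least 200 UMIs in the wild-type library 0 were 1.5-fold higher and 3 lower, and of 5 in the knockout library 0 were higher and 4 lower. With so few genes, nothing particular to the list was read from these counts. *Uhrf1*, the partner of DPPA3, was among them, with ratios of 0.459 (0.391 to 0.536) and 0.357 (0.304 to 0.417). Of 18 pluripotency genes 2 were higher and 6 lower in the wild-type library, and 0 were higher and 7 lower in the knockout library, so that the shares of lower genes were no larger than those over all genes. *Nanog*, a core pluripotency factor, had ratios of 0.231 (0.193 to 0.275) and 0.184 (0.155 to 0.217). *Pou5f1*, which encodes OCT4, had ratios of 1.53 (1.45 to 1.62) and 1.30 (1.23 to 1.37). Of the 4 listed 2C activators other than the Dppa genes, 3 had at least 200 UMIs and *Gata2* had fewer. Of these 3 only *Smarca5*, a chromatin remodeller, passed the fold, at 0.153 and 0.126, while *Nelfa* was at 1.18 and 0.924. The median ratio of all tested genes was 0.779 and 0.919.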

How the data were processed

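The deposited tables hold UMI counts per gene and barcode, which the authors made from inDrop libraries with a published inDrop pipeline. The submitters' notes name mm10 and Seurat 2.3.4, and the aligner is not given in the sources used here. Barcodes carry running numbers, so barcodes shared between the libraries could not be counted. Gene IDs were named with GENCODE M21 (54079 of 54146). Counts were summed over cells and divided by all UMIs (CPM). Levels have exact Poisson, shares exact Clopper-Pearson and ratios exact conditional binomial 95% intervals. Background genes needed 200 UMIs over both groups, with 0.5 added to each count. Copies were found with BLAST+ 2.17.0 among annotated transcripts (at least 80% identity over 100 bases). Scrublet marked 27 wild-type and 18 knockout doublets, which were kept. The scripts were tested on simulated data.

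The members and gene lists were chosen with earlier results of these data known. The RP set took 92 genes by symbol, of which 7 are annotated as other than protein-coding. Other definitions of it were compared by the class sizes they gave after the data were seen. The set used first was kept, and its 85 protein-coding genes alone were run as an alternative. Another alternative set is not reported here. Named genes were the 4 members, list genes with at least 200 UMIs, the 5 genes most like each member, neighbours and copies. Residuals for likeness used a dispersion parameter of 100. Alternatives changed the cell limits, doublets, denominator, scaling, depth, collagen-rich cells, the 2C list and the fold.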

Additional observations from a re-analysis of the deposited data

Results flagged for a closer look

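Barcodes with under 500 UMIs, which entered only the alternative with no minimum of UMIs, also held Dppa transcripts. There were 2472 such wild-type and 4423 such knockout barcodes. *Dppa5a* was at 963 and 994 CPM in them, *Dppa2* at 56.9 and 57.9 CPM and *Dppa4* at 18.2 and 34.2 CPM, all above the level of 3 UMIs in these barcodes (6.83 and 4.46 CPM). Whether these UMIs came from shallow cells or from free RNA was not tested.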

How the results depend on the processing

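Of the alternatives run, 213 values stayed within the spread set for them and 24 moved. Of 225 alternative values of a ratio 13 lay on the other side of 1, 11 of them with an interval that included 1. The other 2 were *Dppa2* between libraries with copies and the unthinned *Dppa5a* shares. All values with the protein-coding RP set were among the 213. Between libraries, *Dppa2* moved to 1.12 with wild-type RP class weights and 0.916 with copies, and *Dppa5a* to 1.13 with median of ratios scaling, 1.06 with the weights and 1.30 with copies. Between RP classes, *Dppa4* at 10 to 15% in the wild-type library moved from 1.26 to 1.80 in cells of at least 10000 UMIs, while at 1.16 in cells of 2000 to 10000 UMIs and 1.20 with the protein-coding RP set its interval included 1, and *Dppa5a* under 5% moved to 0.163 with a minimum of 1000 UMIs. For the highest class, *Dppa5a* moved to 3.31 and 2.88 without RP genes in the denominator, 3.15 and 2.77 with copies, and 3.53 and 2.46 in cells of at least 10000 UMIs. The class weights, copies, depth limit of 10000 UMIs, 5000 UMI limit and protein-coding RP set were chosen after seeing the data. The ratio of *Dppa5a* shares was 0.893 unthinned, and *Dppa5a* in knockout cells with a 2C UMI was at 0.614 without *Usp17l* genes. The genes past the fold numbered 3081, 452 and 288 between libraries at 50 UMIs, 1000 UMIs and a fold of 2, against 1469; for the highest RP class they numbered 7640, 996 and 2561 against 3983 in the wild-type and 6766, 647 and 1861 against 3037 in the knockout library. No paired analysis was possible because each condition had 1 library. *Dppa3* was limited by depth in every comparison.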
